A study of Rattus norvegicus with 5 samples.

Results

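Microglia are the resident macrophages of the brain, and 433 nuclei of microglia and other myeloid cells were selected from 35234 nuclei of the rat ventral tegmental area (VTA). They were chosen by their own counts: at least 2 of the markers *Cx3cr1*, *Csf1r*, *P2ry12* and *Inpp5d*, with 3 or more unique molecular identifiers (UMIs, 1 per captured RNA molecule) summed over the 4 markers. *Mog*, the marker of myelinating oligodendrocytes, had to be under 10 UMIs per 10000. *Pdgfra* of oligodendrocyte precursor cells (OPCs) and *Cldn5* of endothelium had to be at 0, and the neuronal gene *Nyap2* at 1 UMI or fewer. These 8 genes are therefore described and not tested.

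The study combined VTA punches of both sides from adult male Sprague-Dawley rats and measured nuclear RNA with the 10x Genomics 3′ assay, in 5 libraries taken here as 1 library per rat (n = 5). All 5 rats were of 1 group, with treatment given as saline in the sample labels and as drug-naïve in the paper, so no treatment was compared. The remaining 34801 nuclei of the same rats served as the comparison, and 2 narrower comparisons used nuclei selected for *Cldn5* and *Flt1* (endothelial gate) or for *Pdgfra* (OPC gate). A nucleus here is any barcode with at least 600 UMIs, more than 200 and fewer than 5000 genes and mitochondrial genes under 5% of its UMIs.

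Microglia enter the brain early in development from the yolk sac, survive on signals through the Csf1 receptor, and watch their surroundings with receptors for nucleotides, chemokines and microbial products. The transcription factors Spi1 (PU.1), Irf8 and Runx1 direct myeloid genes, and Sall1 marks microglia apart from other macrophages. Macrophages of the meninges and vessel walls, called border macrophages, share Csf1r with microglia but carry scavenger receptors such as Mrc1 and Cd163.

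Libraries differed in depth and in mitochondrial content, which bears on all shares and levels. The libraries held 10193355 to 88576210 UMIs in all, and rat 2 gave 18927 of the 35234 nuclei. Median UMIs per nucleus outside the myeloid selection ran from 969 to 3410, and the median mitochondrial share from 0.263% to 3.78%, highest in rats 1 and 2. Free RNA was estimated from barcodes with under 100 UMIs. Nuclei of different libraries shared 111 barcodes over all pairs, none of them a myeloid nucleus.

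The myeloid share was similar in rats 4 and 5, lower in rats 1 and 2, and lowest in rat 3. Rat 1 had 33 myeloid nuclei, which was 1.21% of its nuclei (exact 95% interval 0.833 to 1.69). Rat 2 had 192 (1.01%, 0.877 to 1.17), rat 3 had 6 (0.152%, 0.0558 to 0.330), rat 4 had 108 (2.08%, 1.71 to 2.5) and rat 5 had 94 (2.13%, 1.72 to 2.60). The mitochondrial limit had removed 24616 of 60986 barcodes with at least 600 UMIs. The mean was 1.31% ± 0.82 (SD, n = 5), and these intervals cover counting error only. With a minimum of 1500 UMIs the order changed, and rat 1 was highest at 2.88%, followed by rat 5 at 2.05%, rat 4 at 2.02% and rat 2 at 1.97%. Rat 3 was at 0.154% with that minimum, which rests on 2 nuclei. The low share of rat 3 was seen at this minimum too, whereas the gap between rats 1 and 2 and rats 4 and 5 was not. The 6 myeloid nuclei of rat 3 held 8404 UMIs between them, and rat 3 was left out of the fits and of the means below.

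**Figure D1:**
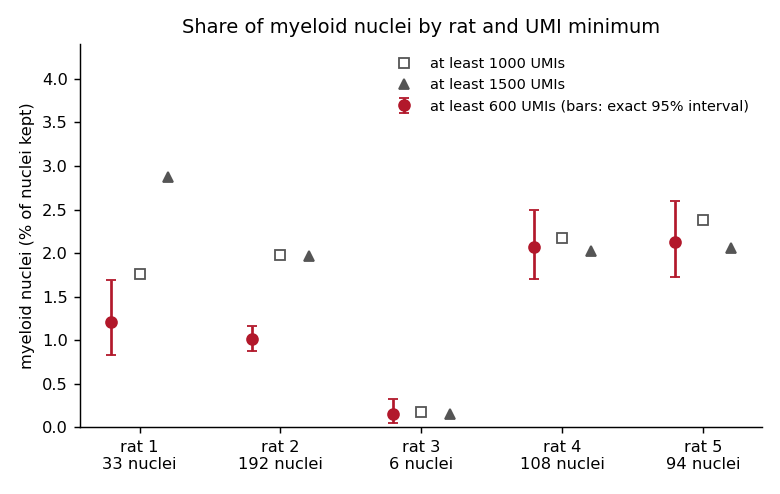
Share of nuclei that met the myeloid rule (vertical axis, percent of nuclei kept) in each rat (horizontal axis, with the number of myeloid nuclei at 600 UMIs), at 3 UMI minimums. Circles carry exact 95% binomial intervals. Rat 3 is at 0.152% to 0.175% at every minimum, on 6, 4 and 2 nuclei, and rat 1 moves from 1.21% to 2.88%.

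The selection was not sharp at its edge. All 4 markers were detected in 49 of the 433 nuclei, 3 in 232 and 2 in 152. The median was 8 marker UMIs per nucleus and the highest 33, with 37 nuclei at exactly 3. Just outside, 44 nuclei had 2 UMIs of 2 markers, and 31 had 3 or more UMIs of a single marker. A further 146 nuclei met the marker rule but were over a limit, 87 of them for *Mog*, 32 for *Pdgfra*, 20 for *Cldn5* and 26 for *Nyap2*, with some over several limits. Such nuclei were counted among the other nuclei.

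*Inpp5d*, a lipid phosphatase of blood cells, stood at 15.3, 12.2, 25.7 and 18.5 UMIs per 10000 in the myeloid nuclei of rats 1, 2, 4 and 5. *Csf1r*, the receptor for Csf1, stood at 11.6, 8.57, 11.4 and 10.9 in the same order. The fractalkine receptor *Cx3cr1* was at 5.73, 4.47, 7.17 and 7.74. *P2ry12*, the nucleotide receptor often used to define microglia, was found in 16.4% of myeloid nuclei, against 72.1% for *Cx3cr1*, 92.8% for *Csf1r* and 94.9% for *Inpp5d*. With each nucleus thinned to 600 UMIs, these shares were 4.62%, 31.6%, 52.0% and 68.1%. Levels of *P2ry12* were 1.72 in rat 1, 0.396 in rat 2, 0.668 in rat 4 and 0.547 in rat 5, and the 6 nuclei of rat 3 had none.

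Promoter sequences are shown for 3 genes, because they hold a motif of the ETS family of transcription factors, to which Spi1 belongs, close to the start of a gene that is strong in the myeloid nuclei. The motif searched was GAGGAAGT on either strand, in the 300 bases from 250 before to 50 after the start of each gene (RefSeq, build GRCr8). *Inpp5d* is a gene of the rule, and *Havcr2* and *Cyth4* are among the 20 genes named below as highest. Capitals mark the motif, which begins at position -3 from the start in *Inpp5d* (chr9:95735283-95735582, plus strand), at -8 in *Havcr2* (chr10:31383675-31383974, plus strand), and at -69 on the opposite strand in *Cyth4* (chr7:112032532-112032831, plus strand).
Inpp5d: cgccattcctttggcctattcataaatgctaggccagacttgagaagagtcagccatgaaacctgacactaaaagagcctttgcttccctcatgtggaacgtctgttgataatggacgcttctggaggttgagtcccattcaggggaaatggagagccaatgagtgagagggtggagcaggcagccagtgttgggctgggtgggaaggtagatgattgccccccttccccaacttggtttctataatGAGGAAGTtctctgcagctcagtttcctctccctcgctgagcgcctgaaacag
Havcr2: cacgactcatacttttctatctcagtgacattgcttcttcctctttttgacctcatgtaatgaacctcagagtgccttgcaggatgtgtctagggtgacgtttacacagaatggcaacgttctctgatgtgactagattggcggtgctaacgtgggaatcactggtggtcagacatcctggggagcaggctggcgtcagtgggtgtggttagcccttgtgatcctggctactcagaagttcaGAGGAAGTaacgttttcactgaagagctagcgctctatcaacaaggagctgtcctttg
Cyth4: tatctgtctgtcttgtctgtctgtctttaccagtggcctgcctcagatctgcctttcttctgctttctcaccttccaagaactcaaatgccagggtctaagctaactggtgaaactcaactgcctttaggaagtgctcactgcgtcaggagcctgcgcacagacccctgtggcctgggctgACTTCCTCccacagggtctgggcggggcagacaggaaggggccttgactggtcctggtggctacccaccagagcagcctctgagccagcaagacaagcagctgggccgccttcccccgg
Of 1623 genes called higher in myeloid nuclei that matched a promoter, 4.56% held the motif, against 2.58% of 9785 promoters of all genes tested, 1.72% of 1453 called lower and 2.44% of 27457 promoters in all. It was in 2 of 14 promoters of the 20 named genes, 1 of 3 of the rule markers and 0 of 10 of the myeloid transcription factors. The shorter core GGAAGT, which lies within the motif, was in 28.0% of promoters of genes called higher, 26.8% of those tested and 14.0% of those called lower. The 3 promoters are descriptions of sequence and say nothing of binding.

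Summed counts per rat were compared with edgeR's quasi-likelihood test, with the rat as a block and Benjamini-Hochberg adjustment over all genes, for rats 1, 2, 4 and 5. Of 13222 genes tested outside the rule, 2095 were higher in myeloid nuclei (15.8%) and 2061 lower (15.6%), at an adjusted p under 0.05. These shares are the background for the counts by list below. A gene rare in the other nuclei passed the filter on low counts only where the myeloid nuclei held it. The counts by list are partly set by this filter. The median log2 fold change over all genes was -0.06. The 20 called genes with the largest increase, among those with a gene symbol and at least 50 UMIs in myeloid nuclei, had log2 fold changes of 6.76 to 7.46. Their standard errors were 0.23 to 0.49. These 20 genes were chosen on this comparison as higher in every rat, so their values are a description. Of the UMIs of these 20 genes in other nuclei, 62.3% lay in the 1867 other nuclei (5.36%) that carried at least 1 UMI of a myeloid marker.

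Over all genes tested the largest log2 fold change was 7.62. *Lat2*, a membrane adaptor of blood cells, led the genes with a gene symbol, at least 50 UMIs in myeloid nuclei and a rise in every rat. It was at 1.15, 0.472, 0.984 and 0.379 UMIs per 10000 in the myeloid nuclei of rats 1, 2, 4 and 5, and at 0.0077 or below in the other nuclei of each rat (log2 fold change 7.46 ± 0.45 SE, edgeR adjusted p = 4.9e-12). *Pik3ap1*, which links receptors to PI3 kinase, was at 5.23, 2.66, 3.94 and 3.45, *Lcp2*, the adaptor SLP-76, at 2.0, 2.79, 4.85 and 5.89, and *Gna15*, a G protein alpha subunit of blood cells, at 3.08, 2.45, 4.53 and 4.08. Others of the 20 were *Fgd2*, an activator of the GTPase Cdc42, *Cyth4*, a cytohesin of leukocytes, and *Bin2*, a membrane-shaping protein of leukocytes at 4.79 to 7.66.

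Several of the 20 encode surface receptors. *Il1rl1*, the receptor for interleukin-33, was at 1.22, 0.736, 1.65 and 1.09 in the myeloid nuclei and at 0.0103 or below in the other nuclei (log2 fold change 7.03 ± 0.33 SE). *Havcr2*, the checkpoint receptor Tim-3, was at 1.93, 2.30, 3.97 and 3.03 against at most 0.0309. Both receptors for complement fragment C5a were in the group, *C5ar2* at 0.585 to 1.65 and *C5ar1* at 0.387 to 0.644. *P2ry6*, a receptor for UDP, was at 2.94, 2.13, 3.97 and 4.80. The leukocyte receptors *Cd300a*, *Cd244* and *Lilra5* and the TLR partner *Ly86* (MD-1) were also named. *Tmem273*, *Tmem156*, *Fam169b* and *Susd3* completed the 20, and *Tmem273* was the second of them by increase (7.04).

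The 10 called genes with the largest decrease had log2 fold changes of -3.74 to -2.81. They were picked among those with a gene symbol and 0.5 UMIs per 10000 or more in other nuclei, and they too were chosen on this comparison. They were led by *Hs6st2*, a heparan sulfate sulfotransferase, at 0.286, 0.0189, 0.105 and 0.0421 in the myeloid nuclei of rats 1, 2, 4 and 5 and at 0.670 to 1.38 in the other nuclei. Without rat 1 its log2 fold change was -4.70. The kainate receptor subunit *Grik3*, the GABA-A receptor subunit *Gabra3*, the adhesion molecule *Cntn3* and the reelin adaptor *Dab1* were of neurons and other neural cells, as was *Vcan*, a proteoglycan strong in OPCs. *Tmem132b*, *Ptchd4*, *Col11a1* and *Klhl29* completed the group. *Vcan* went from -3.02 to -3.91 and *Tmem132b* from -3.12 to -4.20 without rat 2.

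Genes of resting (homeostatic) microglia, which the rule had not used, were measured in 27 of 28 names listed, and 22 of the 24 tested were higher, 1 lower and 1 not past the threshold. Their median log2 fold change was 4.15, against -0.06 over all genes tested. *Sall1*, the transcription factor of microglia, was at 3.44, 3.47, 6.15 and 4.76 in myeloid nuclei and at 0.342 on average in the other nuclei (log2 fold change 3.69 ± 0.20 SE, edgeR adjusted p = 5.2e-13). *Tmem119*, a surface protein of microglia, was at 0.931, 0.962, 1.72 and 0.884, all above the mean of 0.0207 in other nuclei. *Slco2b1*, an organic anion transporter, stood at 10.5, 8.25, 19.5 and 13.4, *Slc2a5*, the fructose transporter GLUT5, at 2.43, 2.64, 6.43 and 4.12, and *Mertk*, a receptor for dying cells, at 13.3, 12.1, 26.4 and 13.6.

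A few genes of the list stood apart. *Nav2* was lower (log2 fold change -1.82), and *Arhgap5* did not pass the test at -0.10. *Siglech* had no UMI in any myeloid nucleus, and *Olfml3* and *Rnase4* had 4 and 2 UMIs. *P2ry13* had 12 UMIs and was called higher (3.71). *Cst3*, a protease inhibitor, was higher (2.42), with 71.2, 52.4, 18.4 and 37.5 in myeloid nuclei, and its levels in free RNA of the same rats were 24.4, 46.6, 20.2 and 37.1. The label of microglia was met by *Sall1*, *Tmem119* and most other genes of resting microglia, but not by *Siglech*. No UMI of *Siglech* among the 1200107 UMIs of all myeloid nuclei allows a level of up to 0.0250 per 10000. A level as low as the 0.0121 of other nuclei was thus not detectable at this depth, while a rise of *Siglech* above 0.0250 was not seen.

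**Figure D2:**
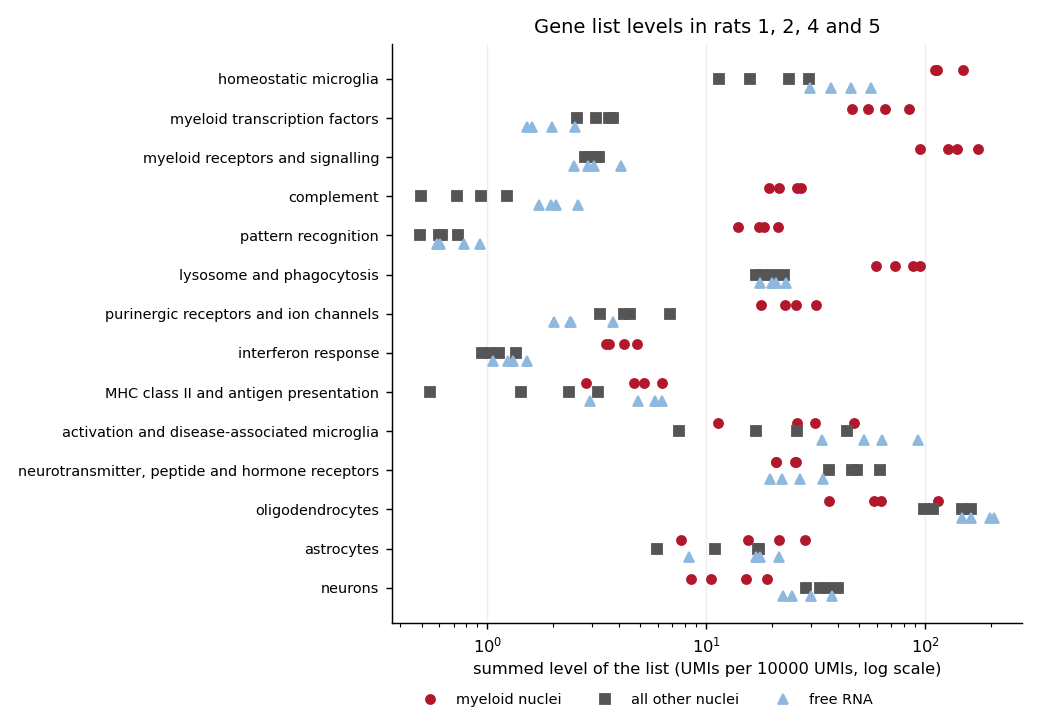
Summed level of 14 gene lists (UMIs per 10000, log axis) in rats 1, 2, 4 and 5; each point is 1 rat, for myeloid nuclei, all other nuclei and free RNA. The first 5 lists lie well above both other groups in every rat, while the activation list overlaps the other nuclei and lies below free RNA on average (29.0 against 60.6).

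Myeloid transcription factors rose almost as a set, with 14 of 15 higher and a median log2 fold change of 4.84. *Runx1* was at 8.52, 4.49, 9.31 and 6.23 against 0.0781 on average in other nuclei (log2 fold change 6.50 ± 0.23 SE, edgeR adjusted p = 6.3e-16). *Ikzf1*, the lymphoid and myeloid factor Ikaros, was at 11.6, 7.21, 13.8 and 8.0, and *Mef2c* at 19.9, 16.3, 28.7 and 18.2. *Spi1* stood at 1.07, 0.944, 1.83 and 1.09, and *Irf8* at 1.07, 0.906, 1.51 and 1.89. *Bhlhe41* had 14 UMIs and did not pass the test at 1.06. Against endothelial-gated nuclei, 8 of the 10 factors tested were higher, against 12.4% of all genes tested there. *Fli1*, which is also a factor of endothelium, differed by 0.28 and did not pass.

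Receptors and signalling proteins of myeloid cells were higher for 24 of 25 genes tested, with a median of 5.92. *Arhgap15*, a Rac-directed GTPase activator, was at 40.5, 23.1, 41.9 and 25.3, the exchange factor *Dock8* at 14.0, 9.53, 14.4 and 12.8, and the adaptor *Blnk* at 7.73, 8.13, 14.7 and 13.6. *Ptprc* (CD45), the general marker of leukocytes, was at 4.22, 4.11, 7.73 and 6.14, and *Itgam* (CD11b) at 2.43, 1.59, 4.11 and 2.78. The receptor chain for interferon gamma, *Ifngr1*, was at 8.59, 6.51, 13.8 and 10.4. *Csf2ra* had 7 UMIs and a log2 fold change of -0.13, which did not pass.

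Complement genes were higher in all 8 cases that could be tested of 14 measured, with a median of 4.95. The filter on low counts partly sets this count, since genes rare in both groups were not tested. The subunits of C1q, which opens the classical pathway, all rose. *C1qa* was at 6.30, 5.13, 4.01 and 5.89, *C1qb* at 6.16, 3.49, 2.92 and 5.05, and *C1qc* at 2.79, 1.94, 1.83 and 2.65. The central component *C3* was at 0.505 to 0.716 and its receptor *C3ar1* at 0.295 to 0.738. *C4b* had no UMI.

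Pattern recognition genes were higher in all 11 cases tested of 18, with a median of 5.67. This count, too, is partly set by the filter on low counts. *Tlr7*, the sensor of single-stranded RNA, was at 2.36, 2.09, 4.82 and 2.69 (log2 fold change 6.70 ± 0.25 SE), and the inflammasome sensor *Nlrp3* at 1.29, 1.26, 2.28 and 1.94. *Il18*, an inflammasome product, was at 4.51, 2.68, 3.41 and 2.99. Of the other cytokines of the list, *Il1b* had 4 UMIs and *Tnf* none among 1200107 UMIs in all myeloid nuclei.

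Of 21 lysosomal and phagocytic genes, 17 were higher (15.8% of all genes tested), 1 was lower (15.6%) and 3 did not pass. The median was 1.45. *Ctss*, a cathepsin of antigen-presenting cells, was at 21.8, 4.93, 16.6 and 8.67, all above the 0.514 or less of the other nuclei (log2 fold change 6.15 ± 0.34 SE). *Lgmn* (legumain) was at 10.6, 5.64, 5.17 and 7.28. *Dock1*, a factor of engulfment, was lower (-0.98), and the macrophage marker *Cd68* had 1 UMI.

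Purinergic receptors and ion channels were higher for 8 of 14 tested (15.8% of all genes), 1 was lower (15.6%) and 5 did not pass. The ATP-gated channel *P2rx7* was at 6.09, 5.40, 9.10 and 6.90 (log2 fold change 3.70), the potassium channel *Kcnk13* (THIK-1) at 4.80, 3.30, 6.47 and 4.76 (5.57), and *Entpd1* (CD39), which breaks down ATP, at 3.22, 2.34, 4.99 and 3.37 (4.96). *Nt5e* (CD73), the next enzyme of that path, was lower at -0.84, a call that was lost without the rat as a block, and it was higher than in OPC-gated nuclei (1.16).

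**Figure D3:**
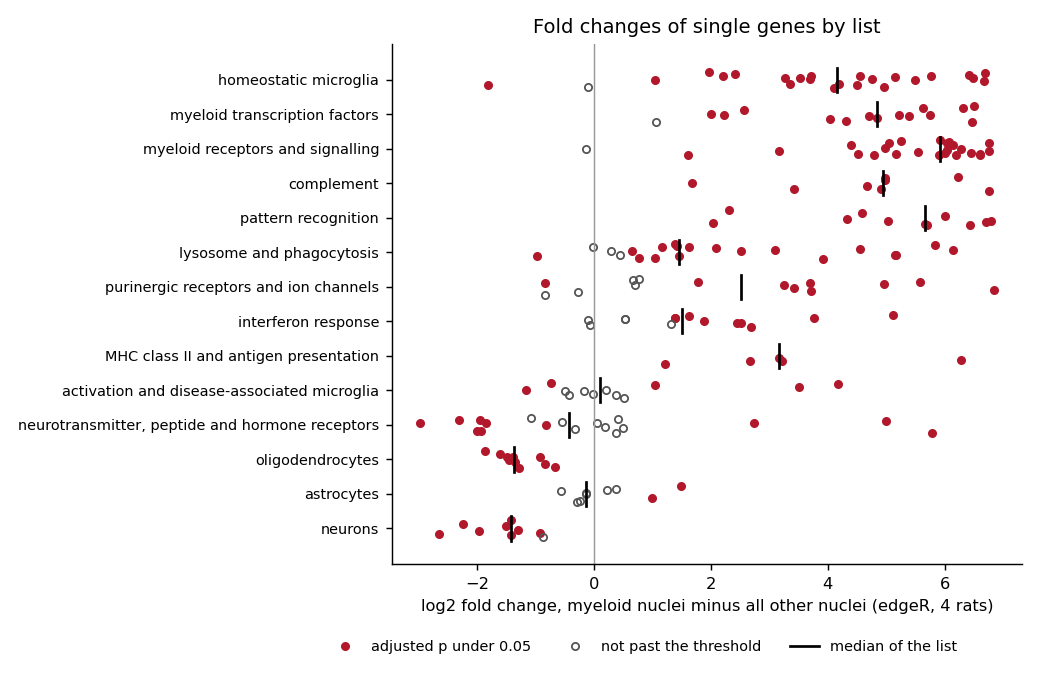
Log2 fold change of each tested gene (horizontal axis, myeloid minus all other nuclei, edgeR on 4 rats) by list, with the list median as a bar. Filled points passed an adjusted p of 0.05; the medians run from 5.92 for receptors and signalling to -1.42 for neuronal genes.

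Of 18 receptors for transmitters, peptides and hormones that were tested, 3 were higher, 7 lower and 8 did not pass. The number higher is near the 15.8% of all genes tested, of which 15.6% were lower. The mu opioid receptor *Oprm1* was higher. Its level was 2.29 in rat 1, 1.40 in rat 2, 5.24 in rat 4 and 6.23 in rat 5, against 0.369, 0.537, 0.484 and 0.640 in the other nuclei of the same rats and 0.311 to 0.521 in free RNA. The groups did not overlap, and rats 4 and 5 were above rats 1 and 2. The log2 fold change was 2.74 ± 0.26 SE (edgeR adjusted p = 1.8e-08), and it was 4.43 against OPC-gated nuclei (edgeR adjusted p = 3.0e-07) and 2.90 against endothelial-gated nuclei (edgeR adjusted p = 0.00011). At least 1 UMI of *Oprm1* was found in 192 myeloid nuclei (44.3%), against 7.32% of other nuclei, with median depths of 2128 and 1527 UMIs. Thinned to 600 UMIs, the shares were 18.5% and 2.32%. The delta receptor *Oprd1* had 7 UMIs in myeloid nuclei.

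The cannabinoid receptor *Cnr2* was higher, at 0.113 to 0.176 with 16 UMIs (log2 fold change 4.99 ± 0.66 SE). Lower were the metabotropic glutamate receptor *Grm3* (-2.31, and -2.94 without rat 2, but 0.92 and called higher against OPC-gated nuclei), the AMPA receptor subunit *Gria2* (-1.86), the dopamine receptor *Drd2* (-1.93) and the nicotinic subunit *Chrna7* (-2.97, and -3.79 without rat 2). *Glp1r*, the receptor that the study is about, had no UMI in the 433 myeloid nuclei, which allows a share of up to 0.693% with a UMI and sets no limit on the share that expresses it. The 3 UMIs that a count of 0 allows correspond to a level of 0.0250 per 10000, above the 0.0162 of all other nuclei. A level below that of the other nuclei was thus not detectable at this depth, while a level above 0.0250 was not seen.

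**Figure D4:**
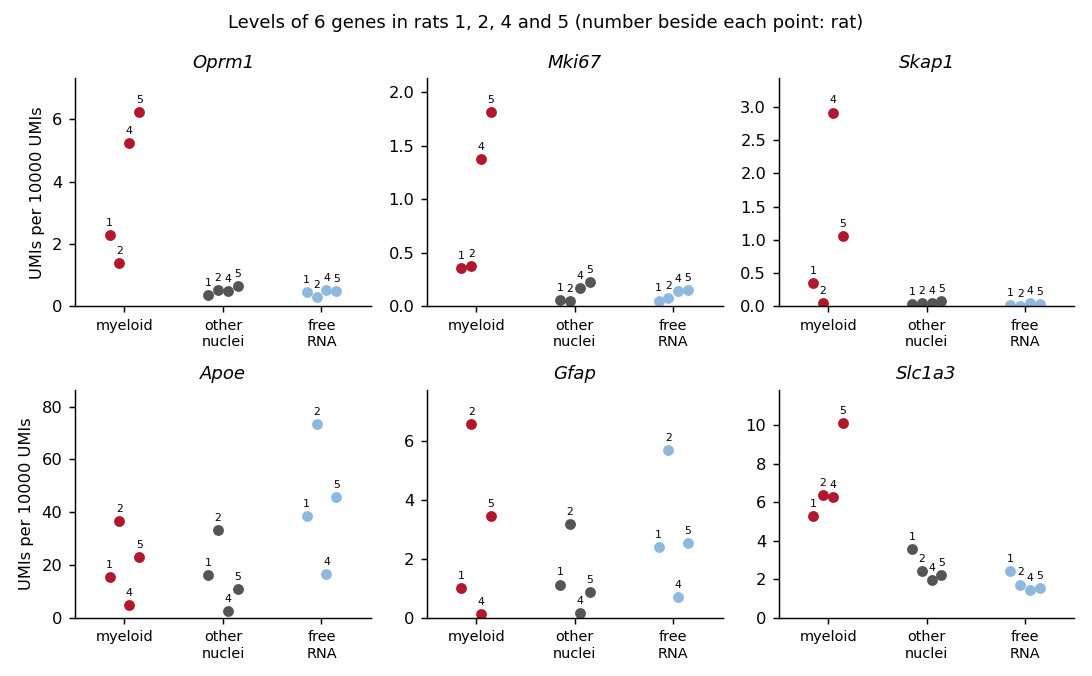
Levels of 6 genes (UMIs per 10000, each panel with its own axis) in myeloid nuclei, other nuclei and free RNA; each point is 1 of rats 1, 2, 4 and 5, numbered. *Oprm1*, *Mki67* and *Slc1a3* are above the other nuclei of the same rat in every rat, *Skap1* is high in rats 4 and 5, and *Apoe* is below free RNA in all 4 rats.

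The summed list of activated or disease-associated microglia was at 29.0 in myeloid nuclei and at 23.6 in other nuclei on average. Of its 20 genes measured, 12 could be tested, and 3 of these were higher, 2 lower and 7 not past the threshold, with a median of 0.09. Over all genes tested 15.8% were higher and 15.6% lower, so the counts are not a result about this list. *Igf1*, a growth factor (0.644, 0.491, 1.37 and 0.800), *Cybb*, the NADPH oxidase subunit (0.143, 0.226, 0.105 and 0.421), and the cathepsin *Ctsb* were higher. *Ctsb* was at 3.65, 2.15, 1.20 and 1.56, and below the free RNA of the same rat (2.94, 2.72, 2.24 and 2.22) in rats 2, 4 and 5. *Cd9* and *Csf1* were lower, and the calls of *Ctsb* and *Cd9* were lost without the rat as a block. *Csf1* was past the threshold with all 4 rats (-1.16), but had an edgeR adjusted p = 0.056 and a log2 fold change of -0.92 without rat 4, and a log2 fold change of -1.89 without rat 2. *Cst7* and *Ccl4* had no UMI, and *Clec7a*, *Gpnmb*, *Itgax* and *Lpl* had 3, 4, 5 and 6. *Apoe* was at 15.6, 36.7, 4.67 and 23.2 in myeloid nuclei, at 16.2, 33.3, 2.67 and 11 in the other nuclei, and at 38.6, 73.6, 16.7 and 45.8 in free RNA. In every rat its myeloid level was below that of free RNA, and its log2 fold change of 0.50 did not pass (edgeR adjusted p = 0.11). With minimums of 1000 and 1500 UMIs *Apoe* passed, at 0.68 and 0.80. Against OPC-gated nuclei 4 of 7 genes of the list were higher, *Apoe* among them (0.61), and 1 was lower, with 21.9% and 19.4% of all genes tested there. *Apoe* was lower than in endothelial-gated nuclei (-0.90).

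Antigen presentation genes were higher in 5 of 5 tested of 14, and 3 with other nuclei matched on UMI total, but the class II chains were too sparse to test. The count of 5 of 5 is partly set by the filter on low counts. *Cd74*, the class II chaperone, was higher (3.21), at 0.0716, 0.604, 0.0351 and 0.168, with 32 of its 38 UMIs in rat 2. Free RNA of *Cd74* was at 0.0788, 0.166, 0.174 and 0.131, above the myeloid level in rats 1 and 4. The co-stimulator *Cd86* (6.28) was also higher. The class II chains *RT1-Da*, *RT1-Db1*, *RT1-Ba* and *RT1-Bb* had 7, 9, 5 and 1. *Ciita* had none. *B2m*, the class I light chain, was at 3.58, 4.30, 1.76 and 3.87 and higher by 1.21, and it was below free RNA in all 4 rats (4.62, 5.83, 2.26 and 5.34). Its call was lost without the rat as a block. Against endothelial-gated nuclei *B2m* was lower (-1.17).

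Of the interferon response genes, 9 of 14 tested were higher (15.8% of all genes tested) and none lower (15.6%), with a median of 1.51. *Mx1* was at 0.143, 0.302, 0.422 and 0.295 (log2 fold change 5.11 ± 0.49 SE) and *Parp14* at 0.788, 0.736, 1.37 and 0.715 (3.76 ± 0.30 SE). *Isg15*, *Ifit3* and *Rsad2* had 4, 1 and 0 UMIs. With other nuclei matched on UMI total, 5 genes of the list were called. Against endothelial-gated nuclei none of 4 tested was higher, and *Bst2* (-4.13) and *Usp18* (-3.16) were lower. Over all genes tested there 12.4% were higher and 12.7% lower.

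*Mki67*, a gene of dividing cells, was higher in myeloid nuclei, while the rest of the proliferation list was nearly absent. It was at 0.358, 0.377, 1.37 and 1.81 in rats 1, 2, 4 and 5, against 0.0579, 0.0469, 0.174 and 0.225 in their other nuclei (log2 fold change 2.98 ± 0.25 SE, edgeR adjusted p = 1.9e-09), and 1.02 higher than in OPC-gated nuclei. Its 107 UMIs lay in 74 nuclei (17.1%, and 6.47% after thinning). The mitotic genes *Top2a*, *Cdk1*, *Ccnb1*, *Bub1* and *Rrm2* had 6, 1, 4, 1 and 0 UMIs. The other cell-cycle genes were thus at or near 0. At least 3 UMIs over at least 2 genes of the list were found in 5 of the 433 nuclei (1.15%) and in 0.167% of the other nuclei.

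Border macrophage markers picked out 10 of the 433 nuclei, 8 in rat 2 and 2 in rat 4, by 3 UMIs over at least 2 markers. The same gate was passed by 23, 13, 8 and 7 of the other nuclei in rats 2, 3, 4 and 5. That was 0.147% of all others, against 2.31% of the myeloid nuclei. Most nuclei that passed the gate thus lay in the far larger group of other nuclei, and by which markers they passed was not examined. Pooled over rats, these 10 nuclei held all 67 UMIs of *Mrc1*, the mannose receptor, and all 38 of *Cd163*, the haemoglobin scavenger receptor. They held 48 of the 49 UMIs of *F13a1* and 8 of the 13 of *Lyve1*. Of the rule's own markers they had 41 UMIs of *Csf1r* in 10 of 10 nuclei, 20 of *Inpp5d* in 8, and 1 each of *Cx3cr1* and *P2ry12*. Since the rule asks for at least 2 of these markers, the first 2 values are partly set by it. Of genes the rule did not use, they had 2 UMIs of *Sall1* and none of *Tmem119*. In the nuclei that passed neither this gate nor the lymphocyte gate, *Cx3cr1* was at 5.85 per 10000, *Sall1* at 4.38 and *Tmem119* at 1.09. The gate used *Mrc1*, *Cd163*, *F13a1* and *Lyve1*, so their values are a description. *F13a1* was called higher over all myeloid nuclei (3.10), with 2.30 without rat 2, 2.49 without rat 4 and 3.84 without rat 5, and was not called by DESeq2 (adjusted p = 0.47).

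**Figure D5:**
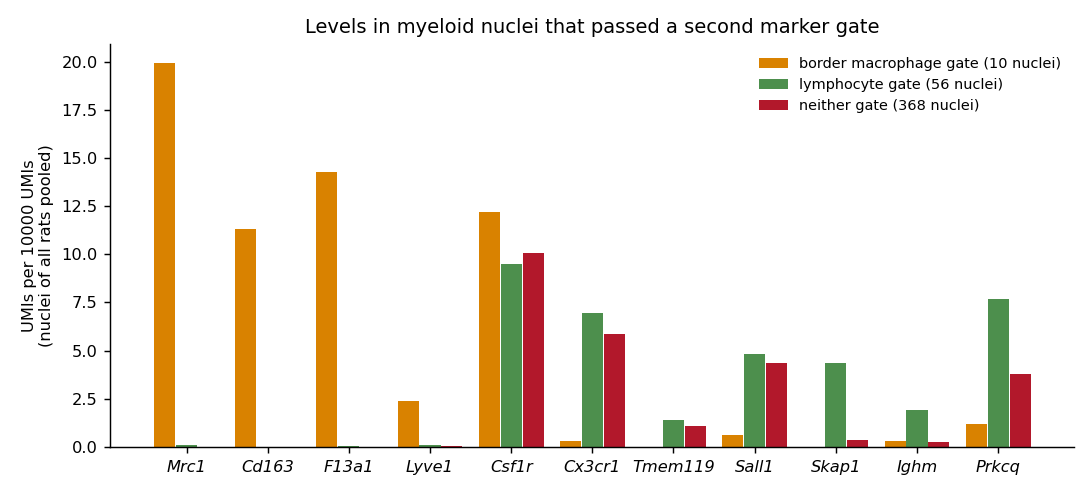
Levels of 11 genes (UMIs per 10000, nuclei of all rats pooled, no error bars because nuclei are not replicates) in myeloid nuclei that passed the border macrophage gate (10), the lymphocyte gate (56) or neither; 1 nucleus passed both. The border gate nuclei keep *Csf1r* at 12.2 while *Cx3cr1* is at 0.297, and the lymphocyte gate nuclei have *Sall1* at 4.83 and *Tmem119* at 1.42.

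A lymphocyte marker gate of the same form took 56 myeloid nuclei, 30 of them in rat 4, but its defining genes were absent. Of the other nuclei 28, 151, 12, 116 and 92 in rats 1 to 5 passed it (1.15%), and after thinning to 600 UMIs 5 myeloid nuclei did. *Cd3e*, *Cd3d*, *Cd3g*, *Cd79a*, *Cd79b* and *Ms4a1* had no UMI in any myeloid nucleus, and 13 of the 21 genes of the list were at 0. The gate was passed through *Prkcq*, *Skap1* and *Ighm*, and the 56 nuclei had *Sall1* at 4.83 and *Tmem119* at 1.42. With the defining genes at 0, they were not named lymphocytes. *Prkcq*, the protein kinase C theta, was at 4.94, 3.38, 5.27 and 4.97 over all myeloid nuclei (log2 fold change 2.17). *Skap1*, an adaptor best known from T cells, was at 0.358, 0.0566, 2.92 and 1.05 in rats 1, 2, 4 and 5, against 0.0373, 0.0457, 0.0509 and 0.0746 in their other nuclei. Its groups overlapped, since the myeloid level of rat 2 was below the level of other nuclei in rat 5 (log2 fold change 3.93, and 2.74 without rat 4). *Ighm* was at 0, 0.377, 0.949 and 0.631 (3.77, and 3.18 without rat 4).

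Mast cell genes other than *Kit* had at most 1 UMI each. Of the monocyte, neutrophil and dendritic cell list, 7 of 14 genes were at 0, *S100a8* and *S100a9* had 1 UMI each, and *Itgal*, a leukocyte integrin, was called higher (4.41). *Itgal* was at 0, 0.208, 0.422 and 0.505, and it was not among the calls without rat 5, with a minimum of 1500 UMIs, with the highest 5% of doublet scores removed or with matched other nuclei. *Vcan* and *Flt3* (-2.11) were lower.

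Of 19 genes near risk loci for Alzheimer and Parkinson disease that were tested, 10 were higher, 2 lower and 7 did not pass. Over all genes tested 15.8% were higher and 15.6% lower, so the 2 lower are not a result about this list. *Abi3* was at 2.29, 1.94, 2.78 and 2.06 (log2 fold change 6.75 ± 0.23 SE), *Plcg2* at 2.36, 1.09, 2.67 and 1.60 (4.98), and *Trem2*, a lipid receptor of microglia, at 1.72, 1.32, 0.668 and 1.94 (4.76). *Lrrk2* (-1.32) was among those lower. *Bin1* was at 3.44, 4.11, 4.22 and 3.58 and did not pass, with free RNA at 5.82, 4.13, 5.80 and 3.52 (-0.44, edgeR adjusted p = 0.10), but it passed as lower under 7 of 13 alternatives, among them without rat 2 (-0.78). It was higher than in endothelial-gated (1.49) and OPC-gated nuclei (0.84).

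Against all other nuclei, genes of oligodendrocytes and neurons were lower in the myeloid nuclei, which the limits on *Mog* and *Nyap2* in the selection partly fix. The summed oligodendrocyte list was at 62.9, 114, 36.6 and 58.5 in myeloid nuclei, against 99.2 to 161 in other nuclei and 148 to 206 in free RNA, and 10 of 10 genes were lower. *Mbp*, a myelin protein, was lower by -0.84, but not without rat 4 (-0.63, edgeR adjusted p = 0.13). The neuronal list was at 15.1, 18.9, 8.51 and 10.5 against 28.7 to 39.8 in other nuclei and 22.3 to 37.6 in free RNA, and 8 of 9 genes were lower. The narrower comparisons differed. Against OPC-gated nuclei 7 of 10 oligodendrocyte genes were higher, *Mbp* among them (0.70), and none lower. Of 7 neuronal genes tested there, 3 were lower and none higher. Over all genes tested in that comparison 21.9% were higher and 19.4% lower. Against endothelial-gated nuclei the median log2 fold changes were -0.12 over 8 oligodendrocyte genes and -0.17 over 6 neuronal genes, near the -0.04 of all genes tested there. In the 6 nuclei of rat 3 the neuronal list was at 29.7, the highest of the 5 rats, against 36.7 in its other nuclei.

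The astrocyte list was at 15.5, 21.6, 7.70 and 28.4 in myeloid nuclei and at 17.3, 17.4, 5.98 and 11 in other nuclei, and its free RNA was at 17.7, 21.6, 8.32 and 16.8, with 2 of 9 genes higher, against 15.8% of all genes tested. *Slc1a3*, the glutamate transporter GLAST, was at 5.30, 6.36, 6.29 and 10.1 against 1.98 to 3.55, without overlap (log2 fold change 1.49 ± 0.23 SE), and it was also higher than in OPC-gated (1.18) and endothelial-gated nuclei (1.87). Of the same list *Aqp4*, *Gja1*, *Slc1a2*, *Slc4a4*, *Agt*, *Aldh1l1* and *Ntsr2* did not pass. *Gfap* was also called (0.99), with 1.0, 6.59, 0.141 and 3.45 in myeloid nuclei and 1.13, 3.17, 0.158 and 0.883 in other nuclei. Its myeloid level was thus below that of the other nuclei in rats 1 and 4. Free RNA of *Gfap* was at 2.40, 5.70, 0.717 and 2.54, and the call of *Gfap* was lost without rat 5 (0.49, edgeR adjusted p = 0.28). Of 7 endothelial genes 1 was higher and 1 lower, and of 6 OPC genes 1 was higher and 4 lower. The numbers higher are near the 15.8% of all genes tested, of which 15.6% were lower. The selection had set *Cldn5* and *Pdgfra* to 0. *Tek*, the angiopoietin receptor, was the endothelial gene called higher, at 0.716, 0.359, 1.44 and 0.926 (2.65, and 2.03 without rat 4), and *Cspg4*, a proteoglycan, the OPC gene, at 1.22, 0.566, 0.773 and 0.715 (1.62). Each was lower than in the nuclei selected for its own type, *Tek* by -3.12 and *Cspg4* by -2.13. The part of free RNA and of nuclei captured together in these levels was not tested.

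With endothelial-gated nuclei (15, 83 and 30 in rats 1, 2 and 5), 4895 genes were tested, and 605 were higher (12.4%) and 624 lower (12.7%). There, 18 of 22 resting microglia genes, 17 of 18 receptor and signalling genes and all 6 pattern recognition genes tested were higher. Of 4 interferon genes tested 2 were lower and 2 did not pass, and of the antigen presentation list the gene tested, *B2m*, was lower. *Igf1r* (-2.94) and *Insr* (-2.27), the receptors of Igf1 and insulin, were lower although neither passed against all other nuclei. With OPC-gated nuclei (50, 242, 164 and 160 in rats 1, 2, 4 and 5), 7701 genes were tested, and 1684 were higher (21.9%) and 1495 lower (19.4%). There, 24 of 24 receptor and signalling genes, 11 of 11 transcription factors and 8 of 8 complement genes were higher. Called against all other nuclei but not against OPC-gated nuclei were *Lrp1* (1.45 and -0.30), *Adgrg1* (1.05 and -0.14) and *Itpr2* (1.78 and -0.21). The difference between these comparisons was not tested, and they share the myeloid nuclei.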

How the data were processed

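Nuclei of VTA punches from 5 rats were sequenced with the 10x Genomics 3′ v3.1 assay. The UMI counts per gene and barcode were made by the authors with Cell Ranger (8.0.1 in the submitters' processing notes, 4 in the headers of the deposited matrices) and deposited unfiltered, for 32883 genes under Ensembl identifiers. The genome build is not given in the sources used here.

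The members and the 23 gene lists (341 of 355 names matched) were chosen with earlier results of these data known. Levels are UMIs per 10000 UMIs from counts summed per rat, and means are over the 4 rats with at least 10 myeloid nuclei. Free RNA is the sum over barcodes under 100 UMIs. Shares carry exact (Clopper-Pearson) 95% intervals.

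Counts summed per rat and group were tested with edgeR 4.0.16 (TMM, filterByExpr, quasi-likelihood test, rat as block, R 4.3.3). The sums of 1 rat come from 1 animal, and the 2 sums of a rat departed from their groups in the same direction (Pearson's r over genes 0.201 to 0.326 for all other nuclei, 0.0795 to 0.108 for endothelial-gated and 0.167 to 0.497 for OPC-gated nuclei). On simulated data for the comparison with all other nuclei (13230 genes), 100 genes were given a 4-fold and 100 a 2-fold change. The test recovered 99% and 55% of these, and 6.67% of its calls were false. Recovery was not measured separately for genes with few UMIs, so it does not say what a gene that did not pass means there. Far fewer genes were changed than were called in the data, so the false share need not carry over. Genes were named from the lists and the rule, plus *Glp1r*, the 20 called genes with the largest increase (at least 50 UMIs, higher in every rat fitted) and the 10 with the largest decrease (at least 0.5 per 10000 in other nuclei). The groups of 20 and 10 leave out genes known only by an identifier or a provisional name such as LOC, AABR or RGD. Alternatives were DESeq2 1.42.0 and its size factors, no filter, no replicate block, other UMI and marker minimums, matched depth, thinning to 600 UMIs, each rat left out, and Scrublet, which marked 3 of 35234 nuclei and did not work here. Removal of the highest 5% of its scores was added after seeing the data. No doublets were removed in the main analysis. Promoters came from RefSeq (GRCr8), and no coordinates were taken from the deposited files. Some genes of the lists are counted but not reported here by name.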

Additional observations from a re-analysis of the deposited data

Results flagged for a closer look

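Of 132 values examined over rats 1, 2, 4 and 5, 8 had 1 rat far from the other three, and chance marks about 5% of such values. Rat 1 was high for the summed list of resting microglia at 149.6 UMIs per 10000, against 111 to 113 in rats 2, 4 and 5. Of these sums *Cst3* alone was 71.2 in rat 1 and 52.4, 18.4 and 37.5 in rats 2, 4 and 5. The list value of rat 1 thus rests in large part on 1 gene. Rat 1 was low for the monocyte, neutrophil and dendritic cell list at 0.573. Rat 4 was high for *Tmem119* at 1.72, *Mertk* at 26.4, *Spi1* at 1.83, *Fli1* at 8.72 and *Parp14* at 1.37. Rat 5 was high for *Grik3* at 0.168, which rests on 10 UMIs in all.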

How the results depend on the processing

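The number of myeloid nuclei stayed within 1.5 times 433 under 8 of 9 alternatives, from 344 with at least 1500 UMIs to 579 without limits on the excluded genes, and was 168 with each nucleus thinned to 600 UMIs, since fewer markers are then seen. With the highest 5% of doublet scores removed, which was chosen after seeing the data, it was 399. The mean share was 0.570% to 1.82% over all alternatives. Genes called against all other nuclei numbered 4156 and ran from 3222 with other nuclei matched on UMI total, where 8966 genes were tested, to 4755 with no filter. With no replicate block they numbered 3370. The split of calls moved from 50.4% higher to 37.9% with no filter, to 41.4% without rat 1 and to 41.6% without rat 2. Without the block 1149 genes were called against endothelial-gated nuclei (1229 with it) and 2580 against OPC-gated nuclei (3179 with it). DESeq2 called 826 and 2459 in these comparisons. For 100 of the genes named, all 13 alternatives were followed, and 87 kept their direction and their side of the threshold wherever they could be fitted. Some genes named above, among them *Itgal*, were not among these 100. Without the block *Nt5e*, *B2m*, *Ctsb*, *Cd9*, *Gfap*, *Mbp* and *Snap25* lost their calls, as *Lrrk2* did with matched other nuclei. *Arhgap5*, which was not called, was at -0.10 and ran from -0.33 to 0.0868 with 1 rat left out, turning positive without rat 4. Taken as the mean of single nuclei, the complement list was at 28.1, the list of transmitter, peptide and hormone receptors at 20.3 and the OPC list at 4.46 UMIs per 10000. Each was over 1 SD from the summed value of 23.5, 23.2 and 5.91, and the cause was not tested. The lymphocyte gate took 22 nuclei with at least 5 UMIs in place of 56. Depth limits genes with few UMIs: 0 UMIs in 433 nuclei allow a share with a UMI of up to 0.693%, and say nothing of the share that expresses the gene.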
